A study of Glycine max with 10 samples.

Results

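The phytochrome A genes of soybean (Glycine max) are 4 genes in 2 pairs, E3 (Glyma.19G224200.Wm82.a2.v1) with its duplicate (Glyma.03G227300.Wm82.a2.v1) and E4 (Glyma.20G090000.Wm82.a2.v1) with its duplicate (Glyma.10G141400.Wm82.a2.v1). They were chosen by gene ID, with no threshold on level, and all 4 were found among the 56044 genes of the count table. RNA was sequenced from field-grown pods collected 18 days after flowering. The high_force group holds pods of 5 soybeans labelled as having high pod shattering force (015, 018, 044, 060 and 071), and the low_force group holds pods of 5 soybeans labelled as having low pod shattering force (038, 055, 072, 092 and 109). No genotype, allele at E3 or E4, treatment or time of day is given in the sources used here, and the labels do not state what a numbered soybean stands for (plant, line or pooled plants). The p-values therefore describe no more than the spread among 10 samples.

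Phytochromes are photoreceptors that switch between a red-absorbing and a far-red-absorbing form. Phytochrome A is the member that accumulates in darkness, is degraded in light and mediates responses to far-red and to very weak light. In soybean, E3 and E4 are maturity loci: functional alleles delay flowering in long days by promoting E1, a repressor of the florigen genes FT2a and FT5a. The RefSeq gene table of assembly Glycine_max_v4.0 lists a gene PHYA3 on chromosome 19, a gene E4 with the synonym GmphyA2 on chromosome 20 and a gene PHYA with the synonym GmphyA1 on chromosome 10. These are the chromosomes in the IDs of E3, E4 and the E4 duplicate. The table holds none of the IDs used here, so the names rest on published work as recalled.

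Totals ran from 3779756 to 13298201 counts per library. Levels are given as counts per 1e6 (CPM) of an effective depth, which is the library total scaled by TMM (trimmed mean of M-values), an adjustment for composition. Low_force 055 stood apart, with 85.8% of its counts in 10 genes and an effective depth of 0.922 M counts, against 4.35 to 20.1 M in the other libraries. There, 3 counts made 3.26 CPM. The morning clock genes LHY1a, LHY1b, LHY2a and LHY2b summed to 2201 CPM in high_force 015 and to 1412 and 1443 CPM in low_force 055 and 072, but to between 21.2 and 30.03 CPM in the other 7 libraries. Transcripts of 6 seed genes (glycinins, a beta-conglycinin and lectin) summed to 13580 CPM in low_force 109 and to at most 138.9 CPM elsewhere. The pod NAC genes SHAT1-5 and NST1A had counts in all 10 libraries. Their summed level lay between 48.7 and 68.6 CPM in high_force and between 43.0 and 66.2 CPM in low_force.

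All 4 phytochrome A genes were expressed in the pods, and each had counts in all 10 libraries. None of the 4 passed the test between the groups. Mean levels of E3 were 10.01 ± 2.29 CPM (high_force) and 7.47 ± 2.72 CPM (low_force), and those of E4 were 40.7 ± 7.83 CPM (high_force) and 33.7 ± 6.16 CPM (low_force). The E4 duplicate had means of 34.3 ± 11.2 CPM (high_force) and 33.2 ± 7.25 CPM (low_force). The E3 duplicate was the scarcest by counts, with means of 1.60 ± 1.06 CPM (high_force) and 3.36 ± 4.24 CPM (low_force; each value is a mean ± SD of 5 libraries). Transcript lengths were not used here, so levels are compared between libraries and not between genes. In these whole-pod samples, fewer cells of a type and less RNA per cell cannot be told apart.

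**Figure D1:**
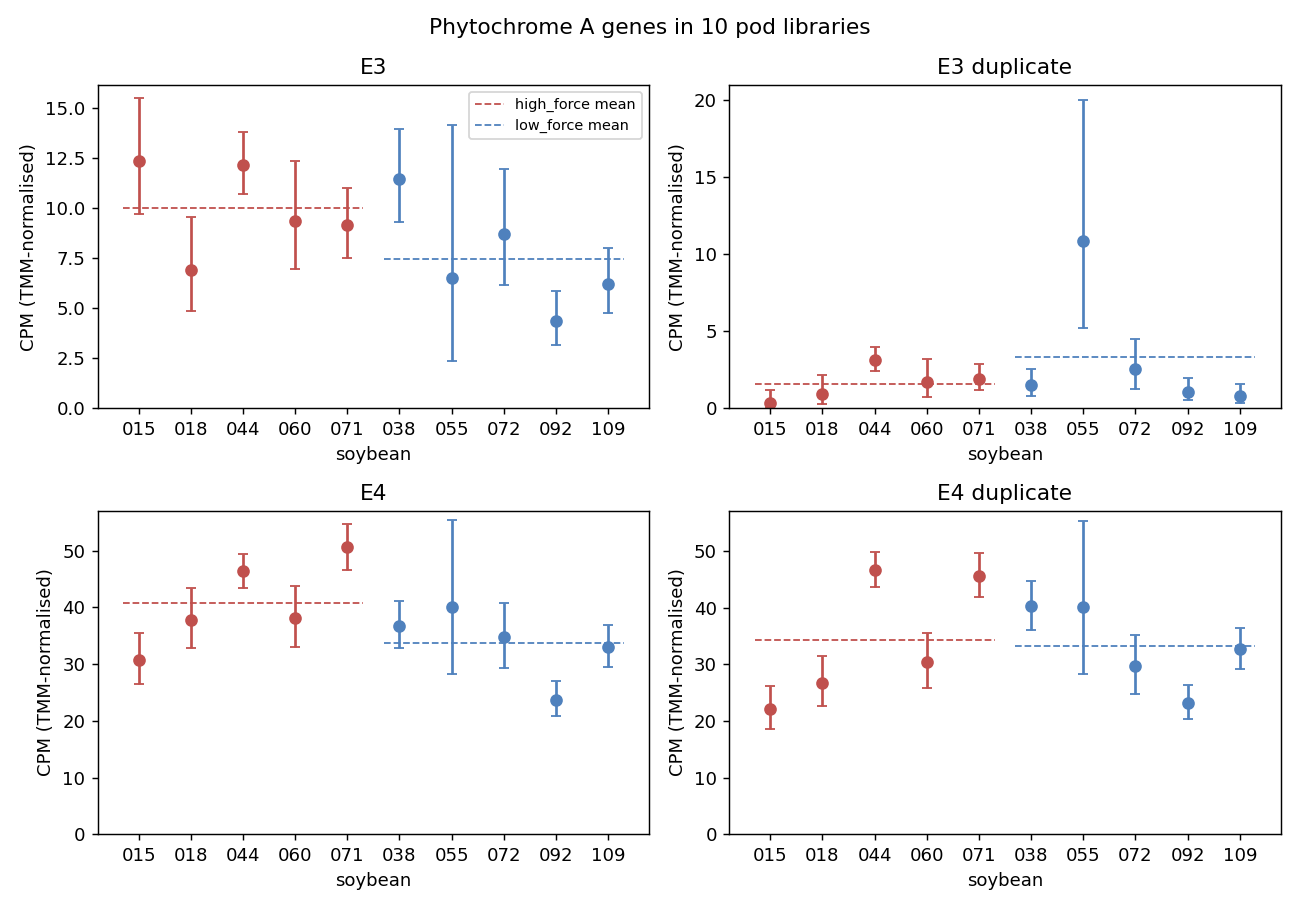
TMM-normalised CPM of each phytochrome A gene (y axis) in the 10 libraries (x axis), high_force in red on the left and low_force in blue on the right. Bars are exact 95% Poisson intervals of the counts and dashed lines are group means. The groups overlap for every gene, and the E3 duplicate has its highest value, 10.9 CPM, in low_force 055.

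E3 encodes the phytochrome A photoreceptor of the E3 maturity locus. It had 12.4, 6.93, 12.2, 9.39 and 9.15 CPM in high_force 015, 018, 044, 060 and 071, against 11.5, 6.51, 8.73, 4.39 and 6.25 CPM in low_force 038, 055, 072, 092 and 109. High_force 018 lay among the lower low_force libraries, and low_force 038 lay among the higher high_force libraries. The value of low_force 055 rests on 6 counts. The log2 fold change of high_force over low_force was 0.41 (SE 0.31), a fold of 1.33 with a 95% interval from 0.839 to 2.12 (edgeR's quasi-likelihood test, adjusted p = 0.846; two-sided exact permutation p = 0.127). In the order of levels each library's counting interval overlapped that of its neighbour, but the intervals at the 2 ends lay apart. They ran from 3.19 to 5.89 CPM in low_force 092 and from 9.74 to 15.5 CPM in high_force 015.

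The E3 duplicate, the partner copy on chromosome 3, had 2, 5, 63, 9 and 23 counts in high_force 015, 018, 044, 060 and 071, or 0.330, 0.937, 3.13, 1.69 and 1.91 CPM. It had 13, 10, 11, 11 and 8 counts in low_force 038, 055, 072, 092 and 109, or 1.51, 10.9, 2.53, 1.10 and 0.806 CPM. The groups overlapped, and low_force 055 lay above all others, with an interval whose lower end, 5.20 CPM, did not reach down to the interval of the next highest, high_force 044. High_force 015 was the lowest, below the 0.495 CPM that 3 counts make in that library. Between the groups the log2 fold change was -0.59 (SE 0.77), a fold of 0.663 with a 95% interval from 0.209 to 2.10 (edgeR's quasi-likelihood test, adjusted p = 0.911; two-sided exact permutation p = 0.476). Without low_force 055 the log2 fold change was 0.21 (adjusted p = 0.930 in edgeR), and it was also positive with library size only (0.57), with limma-voom (0.091), with limma-voom and quality weights (0.11) and without soybeans 015, 055 and 072 (0.79), so no direction is given for this gene.

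E4 encodes the phytochrome A photoreceptor of the E4 maturity locus. It had 30.7, 37.8, 46.4, 38.1 and 50.6 CPM in high_force 015, 018, 044, 060 and 071, against 36.8, 40.1, 34.7, 23.8 and 33.04 CPM in low_force 038, 055, 072, 092 and 109. The 2 highest libraries were high_force 071 and 044, which also have the largest effective depths of the 10, and the lowest was low_force 092. The part of depth was not tested. High_force over low_force gave a log2 fold change of 0.28 (SE 0.22), a fold of 1.22 with a 95% interval from 0.874 to 1.70 (edgeR's quasi-likelihood test, adjusted p = 0.850; two-sided exact permutation p = 0.175).

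The E4 duplicate, the partner copy on chromosome 10, had 22.1, 26.8, 46.7, 30.4 and 45.7 CPM in high_force 015, 018, 044, 060 and 071. In low_force 038, 055, 072, 092 and 109 it had 40.3, 40.1, 29.6, 23.3 and 32.7 CPM. High_force held both the lowest library, 015, and the highest, 044, so the range of low_force lay inside that of high_force. The log2 fold change was 0.060 (SE 0.27), a fold of 1.04 with a 95% interval from 0.697 to 1.56 (edgeR's quasi-likelihood test, adjusted p = 0.980; two-sided exact permutation p = 0.944). Its sign turned without high_force 044 (-0.077), without high_force 071 (-0.065), without low_force 092 (-0.047) and with limma-voom and quality weights (-0.021). For E4 and for its duplicate, each library's counting interval overlapped that of its neighbour in the order of levels, but the ends lay apart. For E4 the end intervals were 20.8 to 27.0 CPM in low_force 092 and 46.6 to 54.8 CPM in high_force 071. For the E4 duplicate they were 18.5 to 26.2 CPM in high_force 015 and 43.8 to 49.8 CPM in high_force 044.

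All 4 genes passed the filter on low counts. Of the 4, edgeR's quasi-likelihood test called 0 higher and 0 lower in high_force, against 0% of the 30226 genes tested. At unadjusted p under 0.05 it held 0 of the 4, against 6.26% of all genes tested. By DESeq2, the edgeR exact test and limma-voom, 0 of the 4 passed as well. Over all genes these methods called few or none: 25 of 46074, 3 of 30226 and 0 of 30226. The groups did not overlap for 0 of the 4, against 0.986% of all genes tested. The log2 fold change was positive for 3 of the 4, against 48.7% of all genes, with a median of 0.17 for the 4 and -0.01 for all.

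Counting reads within a pair needs no library scaling, so the share of E3 or E4 in its pair was compared next. The sources used here give neither the strand setting nor the handling of multi-mapping reads, so the division of reads between duplicated copies is uncertain. The E4 pair was close to evenly divided in counts in every library. E4 made up 58.1%, 58.6%, 49.8%, 55.6% and 52.5% of the pair's counts in high_force 015, 018, 044, 060 and 071, against 47.7%, 53.9%, 50.5% and 50.2% in low_force 038, 072, 092 and 109, while low_force 055 had 37 counts of each copy. The 95% Wilson intervals, which cover counting error only, lay wholly above 50% in high_force 015, 018 and 060 and lay across 50% in the other 7 libraries. Those 3 libraries have totals of 5140148, 3779756 and 4016401 counts, the smallest of high_force, and the part of depth was not tested.

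Mean E4 shares were 54.9 ± 3.72% (high_force) and 50.5 ± 2.22% (low_force; SD, 5 libraries per group), a difference of 4.45 percentage points. That difference did not pass the two-sided exact permutation test (p = 0.0714, adjusted 0.143 over the 2 pairs, smallest possible p 0.00794). Without high_force 044 it was 5.72 points (exact permutation p = 0.0238, not adjusted). This was the only run with 1 soybean left out that had p under 0.05. The highest p of such runs was 0.127 (exact permutation, without low_force 038). Without soybeans 015, 055 and 072 the difference was 4.64 points (exact permutation p = 0.143).

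In the E3 pair, most counts belonged to E3 in 9 of the 10 libraries. E3 made up 97.4%, 88.1%, 79.5%, 84.7% and 82.7% of the pair's counts in high_force 015, 018, 044, 060 and 071, against 88.4%, 37.5%, 77.6%, 80.0% and 88.6% in low_force 038, 055, 072, 092 and 109. The share in low_force 055 rests on 6 counts of E3 and 10 of its duplicate, with a Wilson interval from 18.5% to 61.4% that overlapped that of no other library. At the other end, high_force 015 had 75 counts of E3 and 2 of the duplicate (interval 91.0% to 99.3%). Both libraries are among the 3 with high LHY, whose other library, low_force 072, had a share of 77.6%. The part of LHY level or depth in these shares was not tested.

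**Figure D2:**
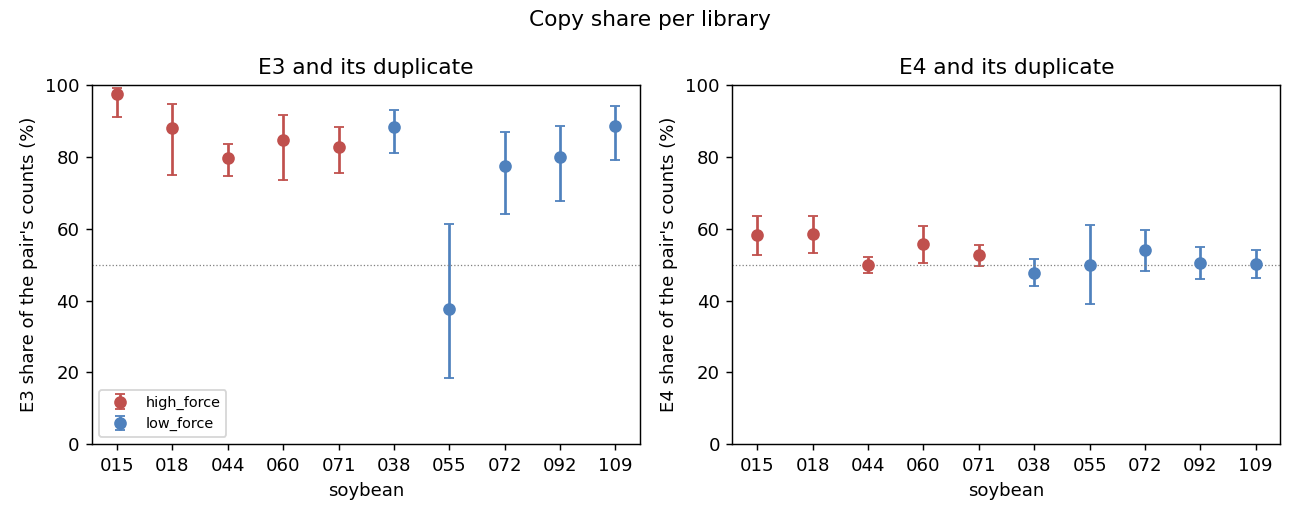
Share of E3 (left panel) and E4 (right panel) in the counts of its pair, in percent (y axis), for the 10 libraries (x axis), high_force in red on the left and low_force in blue on the right, with 95% Wilson intervals. The dotted line marks 50%. E4 lies between 47.7% and 58.6% in every library, while E3 lies between 77.6% and 97.4% in all but low_force 055 (37.5%).

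Mean E3 shares were 86.5 ± 6.84% (high_force) and 74.4 ± 21.2% (low_force; SD, 5 libraries per group), a difference of 12.1 points that did not pass the two-sided exact permutation test (p = 0.286, adjusted 0.286 over the 2 pairs). The size depends on low_force 055: without it the difference was 2.87 points (exact permutation p = 0.571). Without soybeans 015, 055 and 072 it was -1.88 points (exact permutation p = 0.457).

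No library lost the expression of E3, E4 or the E4 duplicate. Relative to the median of the other 9 libraries, the lowest ratio was 0.480 for E3 and 0.628 for E4, both in low_force 092, and 0.675 for the E4 duplicate, in high_force 015. For the E3 duplicate the lowest ratio was 0.195, in high_force 015, where 10.2 counts would stand at the median of the others and 2 were seen. In low_force 055 the opposite held, with 10 counts of the duplicate where 1.39 would stand, and 6 counts of E3 where 8.43 would stand. The effective depth of low_force 055 is the smallest of the 10, and its part in this value was not tested.

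Summed over the 4 genes, phytochrome A stood at 65.5, 72.5, 108.5, 79.6 and 107.3 CPM in high_force 015, 018, 044, 060 and 071, against 90.1, 97.7, 75.6, 52.5 and 72.8 CPM in low_force 038, 055, 072, 092 and 109. Mean sums were 86.7 ± 19.99 CPM (high_force) and 77.7 ± 17.4 CPM (low_force; SD over 5 libraries), and the groups overlapped. The E3 pair supplied between 10.3% and 19.4% of these counts in high_force and between 9.68% and 17.8% in low_force. The SD of log2 CPM over the 10 libraries was 0.30 for E4 and 0.38 for its duplicate, where the median gene of similar level (within 0.5 on the log2 scale) had 0.46 for each. For E3 it was 0.47, against 0.58 for genes of similar level, and for the E3 duplicate 1.15 against 1.12.

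The 3 libraries with high LHY, high_force 015 and low_force 055 and 072, fell differently for each phytochrome A gene. E4 was at 30.7, 40.1 and 34.7 CPM in them, inside the 23.8 to 50.6 CPM of the other 7. High_force 015 was the highest of the 10 libraries for E3 and the lowest for both duplicates, and low_force 055 was the highest for the E3 duplicate. The part of LHY level in these values was not tested. LUX1, a MYB factor of the evening complex, had 0.825, 3.26 and 0 CPM in these 3 libraries. In the other 7 it had 24.4 to 44.2 CPM. The GIGANTEA gene E2 did not separate them in this way. It had 168.5, 157.3 and 118.1 CPM in these 3 libraries, against 122.9 to 214.4 CPM in the other 7. Low_force 109, the library with abundant seed transcripts, held 33.04 CPM of E4 and 32.7 CPM of its duplicate, within the range of the rest.

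The other phytochromes were read from the same table. PHYB1 and PHYB2 encode the light-stable phytochrome B, the main red-light receptor, and PHYE1 and PHYE2 encode phytochrome E, a light-stable relative. PHYB1 (Glyma.09G035500) had means of 69.4 ± 16.3 CPM (high_force) and 62.8 ± 19.8 CPM (low_force), and PHYB2 (Glyma.15G140000) had means of 34.6 ± 6.64 CPM (high_force) and 29.5 ± 7.40 CPM (low_force). PHYE1 (Glyma.09G088500) had means of 8.14 ± 1.83 CPM (high_force) and 7.32 ± 2.48 CPM (low_force; SD over 5 libraries for each). Their log2 fold changes were 0.15 (SE 0.28), 0.24 (SE 0.24) and 0.18 (SE 0.31), none past the threshold.

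PHYE2 (Glyma.15G196500) varied most among the 8 phytochrome genes. It had 33, 50, 47, 63 and 85 counts in high_force 015, 018, 044, 060 and 071, or 5.45, 9.37, 2.34, 11.8 and 7.07 CPM, against 24, 0, 6, 0 and 46 counts in low_force 038, 055, 072, 092 and 109, or 2.79, 0, 1.38, 0 and 4.63 CPM. In low_force 092, 46.4 counts would stand at the median of the other 9 libraries, and 0 counts allow up to 0.368 CPM (exact 95% Poisson interval). In low_force 055 only 4.27 counts would stand there, and 0 counts allow up to 4.003 CPM by the same kind of interval. The log2 fold change was 1.82 (SE 0.81), which did not pass in edgeR's quasi-likelihood test (p = 0.0431 before adjustment, adjusted p = 0.796; two-sided exact permutation p = 0.0317, not adjusted). Low_force 109 and 038 lay above high_force 044, so the groups overlapped.

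Low_force 092 was on the low side for all 8 phytochrome genes, a pattern chosen after the values were seen. All 8 phytochrome genes lay below the median of the other 9 libraries there, against 51.1% of all genes tested. Of the 8, 6 had their lowest level there, against 22.9% of all genes tested, ties included. Among these 6, PHYE2 tied with low_force 055 at 0 counts. Both phytochrome A duplicates had their lowest level in high_force 015. Low_force 092 also held the highest level of 23.6% of all genes tested, and of 0 of the 8. The ratios to that median were 0.48 for E3, 0.65 for its duplicate, 0.63 for E4 and 0.71 for its duplicate, and 0.431, 0.540, 0.494 and 0 for PHYB1, PHYB2, PHYE1 and PHYE2. The 8 genes summed to 104.3 CPM in low_force 092 and to between 162.2 and 252.7 CPM in the other 9 libraries. Its effective depth was 10.02 M counts, the third largest of the 10. Phytochrome A made up 50.3% of the 8-gene counts in this library and between 39.3% and 45.8% in the others.

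**Figure D3:**
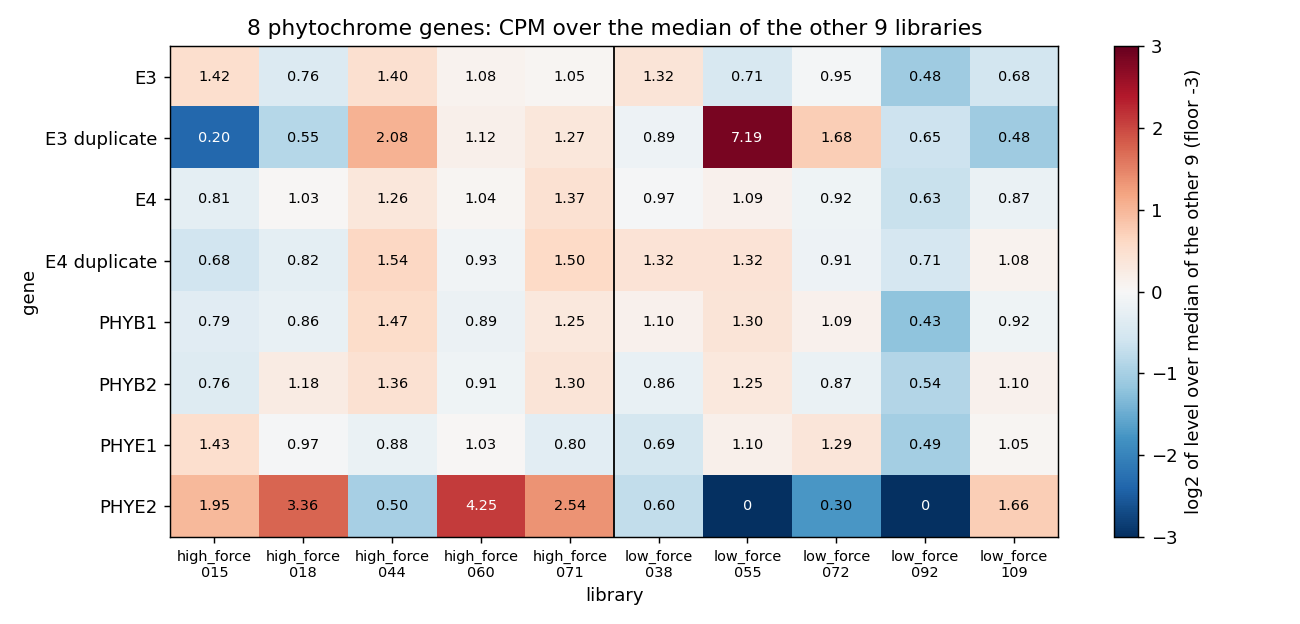
CPM of 8 phytochrome genes (rows) in each library (columns, high_force left of the line and low_force right of it) divided by the median of the other 9 libraries. Numbers are the ratios, and colours are their log2, with red above and blue below the median. The column of low_force 092 is below 1 in all 8 rows, and the E3 duplicate runs from 0.20 in high_force 015 to 7.19 in low_force 055.

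Among these 8 genes, the pattern of E4 over the 10 libraries was most like that of PHYB2, PHYB1 and its own duplicate. Pearson's r of log2 CPM was 0.92 with PHYB2, 0.89 with PHYB1 and 0.83 with the E4 duplicate (Spearman's rho 0.88, 0.78 and 0.78). Without low_force 092 the Pearson values were 0.83, 0.78 and 0.82. Lower values were found for the E3 pair, with 0.52 between E4 and E3 (0.080 without low_force 092) and -0.086 between E3 and its duplicate. That last value changed when 2 libraries were left out together. It was 0.72 without high_force 015 and low_force 055, the farthest for the duplicate. It was -0.50 without low_force 092 and 109, the farthest for E3. These values describe 10 libraries whose points share depth and scaling, and no test was made of them.

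Over all genes tested, the 2 most like each phytochrome A gene by Pearson's r of log2 CPM over the 10 libraries were the following, none of them annotated in the sources used here. For E3 they were Glyma.19G017600 (0.94) and Glyma.03G235200 (0.94), and for the E3 duplicate Glyma.11G069300 (0.95) and Glyma.04G080000 (0.95). For E4 they were Glyma.15G013000 (0.96) and Glyma.03G220700 (0.96), and for the E4 duplicate Glyma.04G182000 (0.97) and Glyma.20G202200 (0.96). An r above 0.9 was reached by 110 genes for E4, 66 for its duplicate, 18 for E3 and 14 for the E3 duplicate. These come from a search of the 30226 genes tested, without the members, over only 10 libraries. The named genes are the highest of that search, and no test was made of them. The 2 named for E3 had as few as 1 and 4 counts in a library.

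The genes that act after phytochrome A in the photoperiod pathway included 3 with almost no counts. E1 (Glyma.06G207800), the flowering repressor that E3 and E4 promote in leaves, had 0 counts in all 10 libraries. By exact 95% Poisson intervals, 0 counts allow up to 0.184 CPM in the deepest (high_force 044) and 4.003 CPM in the shallowest (low_force 055). The E1 relatives E1La (Glyma.04G156400) and E1Lb (Glyma.04G143300) had 5 counts, all in low_force 092, and 1 count, in high_force 015. No group difference can be read from such counts.

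The other genes of the pathway had counts enough to be tested. The gene E2 (Glyma.10G221500), a GIGANTEA gene of the clock output, had means of 173.7 ± 36.5 CPM (high_force) and 155.5 ± 31.3 CPM (low_force), with a fold change of 0.16 on the log2 scale (SE 0.25). J, the ELF3 member of the evening complex, stood at 0.95 (SE 0.66). LUX1 and LUX2, its MYB partners, had 0.33 (SE 0.96) and 0.84 (SE 0.82), and the clock repressor PRR3b had 0.56 (SE 0.34). The florigen genes FT2a and FT5a had -1.19 (SE 0.64) and -1.17 (SE 0.54). None of these values passed. With 1 soybean left out, FT2a ran from -1.78 (without high_force 015) to -0.43 (without low_force 092) and FT5a from -1.73 (without high_force 015) to -0.76 (without low_force 072).

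Of the 14 other light and photoperiod genes 11 could be tested, and edgeR's quasi-likelihood test with adjustment over the whole table called 0 of them higher and 0 lower in high_force, against 0% of all genes. At unadjusted p under 0.05 it held 1 of the 11, PHYE2, against 6.26% of all genes tested. DESeq2, the edgeR exact test and limma-voom called 0 of the 11, against 25 of 46074, 3 of 30226 and 0 of 30226 genes. A positive log2 fold change was found for 9 of the 11, against 48.7% of all genes tested, with a median of 0.24 for the 11 and -0.01 for all. The groups did not overlap for 0 of the 11, against 0.986% of all genes tested.

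**Figure D4:**
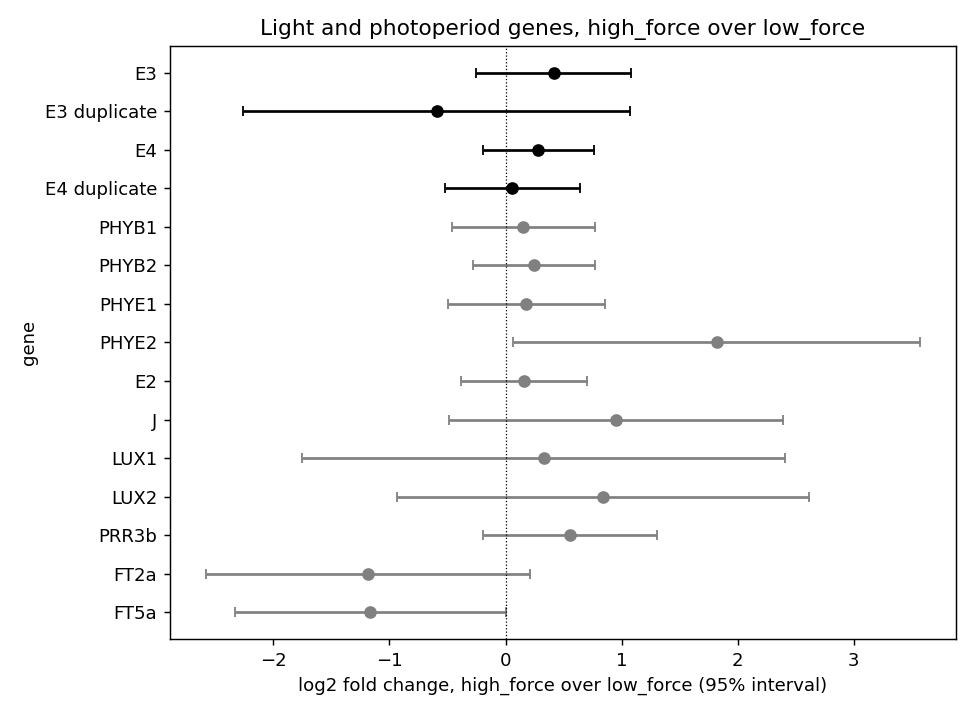
Log2 fold change of high_force over low_force (x axis) with its 95% interval for the 4 phytochrome A genes (black) and 11 other tested light and photoperiod genes (grey), from edgeR's quasi-likelihood fit with 5 libraries in each group. The intervals of all 4 phytochrome A genes include 0, and that of E4, from -0.20 to 0.76, is the narrowest of the 4.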

How the data were processed

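A table of whole-number raw counts for 10 libraries was used as the authors deposited it. The submitters' processing notes list TopHat2, edgeR, featureCounts, Trim Galore 0.4.4 and Subread 1.6.2, without role or setting. Gene IDs end in Wm82.a2.v1, and the sources used here name no genome build. Counts were tested with edgeR 4.0.16 in R 4.3.3 (filterByExpr, TMM, quasi-likelihood F test), fitted on the whole table with Benjamini-Hochberg adjustment over 30226 genes and a threshold of 0.05. SE was computed as the log2 fold change over the root of F. Log2 CPM used a prior count of 2. Exact permutation tests ran over the 252 assignments of libraries to groups. The fit was tested on simulated data. It called 2% of 50 genes changed 2-fold there and 58% of 50 genes changed 4-fold. Changes under 2-fold were not simulated. Named genes are the 4 members, a list of 14 light and photoperiod genes, markers, and the 2 genes most like each member. Members and lists were chosen with earlier results of these data known. Alternatives used DESeq2 1.42.0, the edgeR exact test and limma 3.58.1. No sequences were used here.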

Additional observations from a re-analysis of the deposited data

Results flagged for a closer look

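In groups of 5, 34 sets of values (log2 CPM of 15 genes and the 2 pair shares, in each group) were screened for single distant libraries. Chance alone marks about 1 set in 20, and 5 of the 34 had one. The E3 share of the E3 pair was far below the other low_force libraries in soybean 055 (37.5%, the next at 77.6%), on 16 counts. PHYB1 was far below the rest of low_force in soybean 092, at a log2 CPM of 4.91 with the next at 5.99. In high_force, soybean 015 was far below the rest for J (log2 CPM 3.50), LUX1 (0.094) and LUX2 (1.35), and this library also had the high LHY levels given above. None of the 4 phytochrome A genes had such a sample in its own level.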

How the results depend on the processing

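E3 and E4 stayed positive and short of the threshold in all 21 other settings tried for each (log2 fold change 0.24 to 0.95 for E3 and 0.18 to 0.90 for E4). The E3 duplicate turned positive in 5 of 21 settings: library size only (0.57), limma-voom (0.091), limma-voom with quality weights (0.11), without soybeans 015, 055 and 072 (0.79) and without low_force 055 (0.21). The E4 duplicate turned negative with limma-voom and quality weights (-0.021) and when high_force 044, high_force 071 or low_force 092 was left out. Library size only moved the median of all genes by 0.55 and put 85.6% of genes higher in high_force, against 48.7%. Leaving out 1 soybean gave 0.25 to 0.66 for E3, -1.05 to 0.21 for its duplicate, 0.18 to 0.37 for E4 and -0.077 to 0.18 for its duplicate, and -0.028 (without low_force 092) to 0.27 (without low_force 055) for PHYB1. The E3 share difference ran from 2.87 to 15.6 points and the E4 share difference from 3.55 to 5.72 points. Without soybeans 015, 055 and 072 the E3 share difference was -1.88 points. The cause of these turns was not tested.

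The number of genes past the threshold was 0 in edgeR's quasi-likelihood test (1893 at unadjusted p under 0.05), 62 with library size only, 25 with DESeq2, 3 with the edgeR exact test, 0 with limma-voom, 2 without soybeans 015, 055 and 072, and 0 to 1 with 1 soybean left out. None of the 4 phytochrome A genes was among those called. No paired analysis was possible because the groups share no soybean number. The E3 duplicate, with 155 counts in all, and every value of low_force 055 are limited by depth.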
